A study of Mus musculus with 4 samples.

Results

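Potassium channel genes are described here in sorted cells of the newborn mouse inner ear. The members are all rows of the deposited expression table whose gene symbol begins with *Kcn*, the root shared by most potassium channel genes, and they were found by that symbol alone. They came to 38 of 12814 rows and to 37 symbols, because *Kcnb2* had a pair of rows. All 38 are protein-coding in the gene annotation, which lists 94 *Kcn* symbols in all. The cells came from *Atoh1/nGFP* mice on a C57BL/6 background, sorted by flow cytometry at postnatal day 1. In these mice regulatory sequence of *Atoh1* drives a nuclear green fluorescent protein in hair cells (HCs), the sensory cells of the ear. HCs were sorted as cells with both the fluorescent protein and CD326, an epithelial surface protein, and epithelial non-sensory cells (ENSCs) as cells with CD326 alone, so that the ENSC population mixes several epithelial cell types. The 4 groups, cochlear HCs, cochlear ENSCs, vestibular HCs and vestibular ENSCs, share strain, reporter and age, and ears of several mice were pooled for a replicate. Each group was 1 column of the table, called a library here. The design text names triplicates, single replicates were not analysed here, and whether a column holds 1 replicate or several is not stated. The differences therefore have no replicate error, and no test was run.

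Potassium channels let potassium ions cross a membrane along their gradient. A channel of the voltage-gated, calcium-activated or inward rectifier kind is built from 4 pore subunits, often joined by auxiliary subunits that change its gating. In the inner ear potassium carries the sensory current itself. Non-sensory epithelial cells secrete potassium into the endolymph, the fluid over the hair bundles, through a channel of *Kcnq1* and *Kcne1* products, the ions enter HCs through the mechanotransduction channels, and they leave through voltage-gated and calcium-activated channels of the HC membrane. HCs gain their mature set of these channels over the days after birth.

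The pore subunits share the selectivity filter, a short stretch that lets potassium pass and holds back sodium. The codons of its signature (threonine or serine, any residue, glycine, tyrosine, phenylalanine or leucine, and glycine) were searched in frame in the longest coding sequence of each gene. They were found in 29 of the 38 rows, against 6.17% of 11855 protein-coding genes of the table, and a match is a description of the letters only. The 9 rows without a match were the auxiliary and beta subunits and 1 of the *Kcnb2* rows, and that *Kcnb2* row is a short piece of a pore subunit gene. The stretches below show pore subunits of the channel kinds on which the results turn, 5′ to 3′, on the mm9 build, with the 15 bases of the 5 signature codons in capitals.
Kcnh7, chr2:62615391-62615420, minus strand: ctaaccAGTGTAGGATTTGGAaatgtgtct
Kcnh6, chr11:105880384-105880413, plus strand: ctcactAGTGTGGGCTTCGGCaatgtgtca
Kcna4, chr2:107136646-107136675, plus strand: atgacaACTGTGGGCTATGGGgacatgaag
Kcna10, chr3:106998227-106998256, plus strand: atgacaACTGTAGGCTACGGTgacatgtgc
Kcns3, chr12:11098372-11098401, minus strand: atgaccACAGTGGGCTATGGAgacacccac
Kcnma1, chr14:24347626-24347655, minus strand: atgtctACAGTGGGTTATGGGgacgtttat
Kcnj2, chr11:110933515-110933544, plus strand: cagacaACCATTGGCTATGGTttcaggtgt
Kcnk1, chr8:128549223-128549252, plus strand: ctgagcACCATCGGCCTGGGGgactatgtt

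All of these lie in coding exons. In the *Kcnh* genes the signature codons encode serine first and phenylalanine before the last glycine, as in all 4 *Kcnh* members, whereas tyrosine stood at that place in 24 of the 33 signatures found. *Kcnh2* held a further match with leucine at that place, which is counted among the 33. *Kcnk1* encodes a 2-pore-domain subunit and holds the signature in 2 places, as *Kcnk2* and *Kcnk5* do, and the second, shown here, has leucine in place of tyrosine.

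Expression is given as the deposited signal per gene, a read count after quantile normalization with a floor of 20, not divided by gene length. The low end of each column carries no order between genes, since blocks of genes hold tied or near-tied signals up to 24.2 in cochlear HCs, 22.8 in cochlear ENSCs, 30.5 in vestibular HCs and 20 in vestibular ENSCs. A ratio against a signal in that range is a lower bound, computed against the top of the range and written "at least". The labels were checked on marker genes. The 8 HC markers summed to a signal of 36937 in cochlear HCs, 1837 in cochlear ENSCs, 32358 in vestibular HCs and 1427 in vestibular ENSCs. The 6 supporting cell markers summed to 9480 and 9755 in the HC libraries and to 91484 and 22926 in the ENSC libraries. *Epyc* made up 62028.5 of the cochlear ENSC sum, and all 6 were lower in cochlear HCs than in cochlear ENSCs. In the vestibular pair *Epyc*, *Tecta*, *Otog* and *Otogl* were lower in HCs, the last at 693 against 816. *Tectb* was higher in vestibular HCs, at 2435.5 against 1507, and *Sparcl1* was near equal, at 4025 and 3931. The 4 epithelial markers summed to 7190 and 8906 in cochlear HCs and ENSCs, and to 1551 and 18532 in the vestibular ones, where *Cdh1* (E-cadherin) was at 178 in HCs and 3308 in ENSCs. In the cochlea *Cdh1* made up most of the HC sum, at 6003 in HCs and 4853 in ENSCs. *Epcam*, the gene of CD326, was at 1017 in cochlear HCs, 3376 in cochlear ENSCs, 1139 in vestibular HCs and 7511 in vestibular ENSCs. *Krt8* and *Krt18* were also lower in HCs of both organs.

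Potassium channel transcripts were on the HC side more often than on the ENSC side in both organs. In the cochlea 11 members (28.9%) had at least 3-fold more signal in HCs than in ENSCs, against 8.39% of all genes in the table, and 2 (5.26%) had at least 3-fold less, against 9.2%. In the vestibular system 16 members (42.1%) were at least 3-fold higher in HCs, against 13.8% of all genes, and 4 (10.5%) were at least 3-fold lower, against 14.3%. The median log2 ratio of the members was 0.57 for the cochlea and 0.95 for the vestibular system, where that of all genes was 0 and -0.0045. The contrasts of the organs share no library, and 9 members (23.7%) were at least 3-fold higher in HCs of both, against 4.99% of all genes. Among them were *Kcnh7*, *Kcnh6*, *Kcnh8*, *Kcna4*, *Kcna10*, *Kcns3*, *Kcnmb2* and *Kcnn2*. 1 member (2.63%), *Kcne1*, was at least 3-fold lower in HCs of both, against 4.66%.

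Many of these ratios rest on an ENSC signal inside the tied range. That was so for 7 of the 11 members higher in cochlear HCs and for 11 of the 16 higher in vestibular HCs, and the lower HC signal was tied for 2 of 2 and 3 of 4 members on the other side. With the floor raised to 50 the members higher in HCs numbered 7 (cochlea) and 11 (vestibular system) of 38, against 5.88% and 9.87% of all genes. With a floor of 100 they numbered 3 and 7 of 38, against 4.07% and 7.03%. With tied signals set to the top of their range, 3 members were lower in vestibular HCs, against 12.8% of all genes, as *Kcna2* was then short of 3-fold. 21 of the 38 members reached a signal of 100 in at least 1 library, and 17 stayed below it in all.

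**Figure D1:**
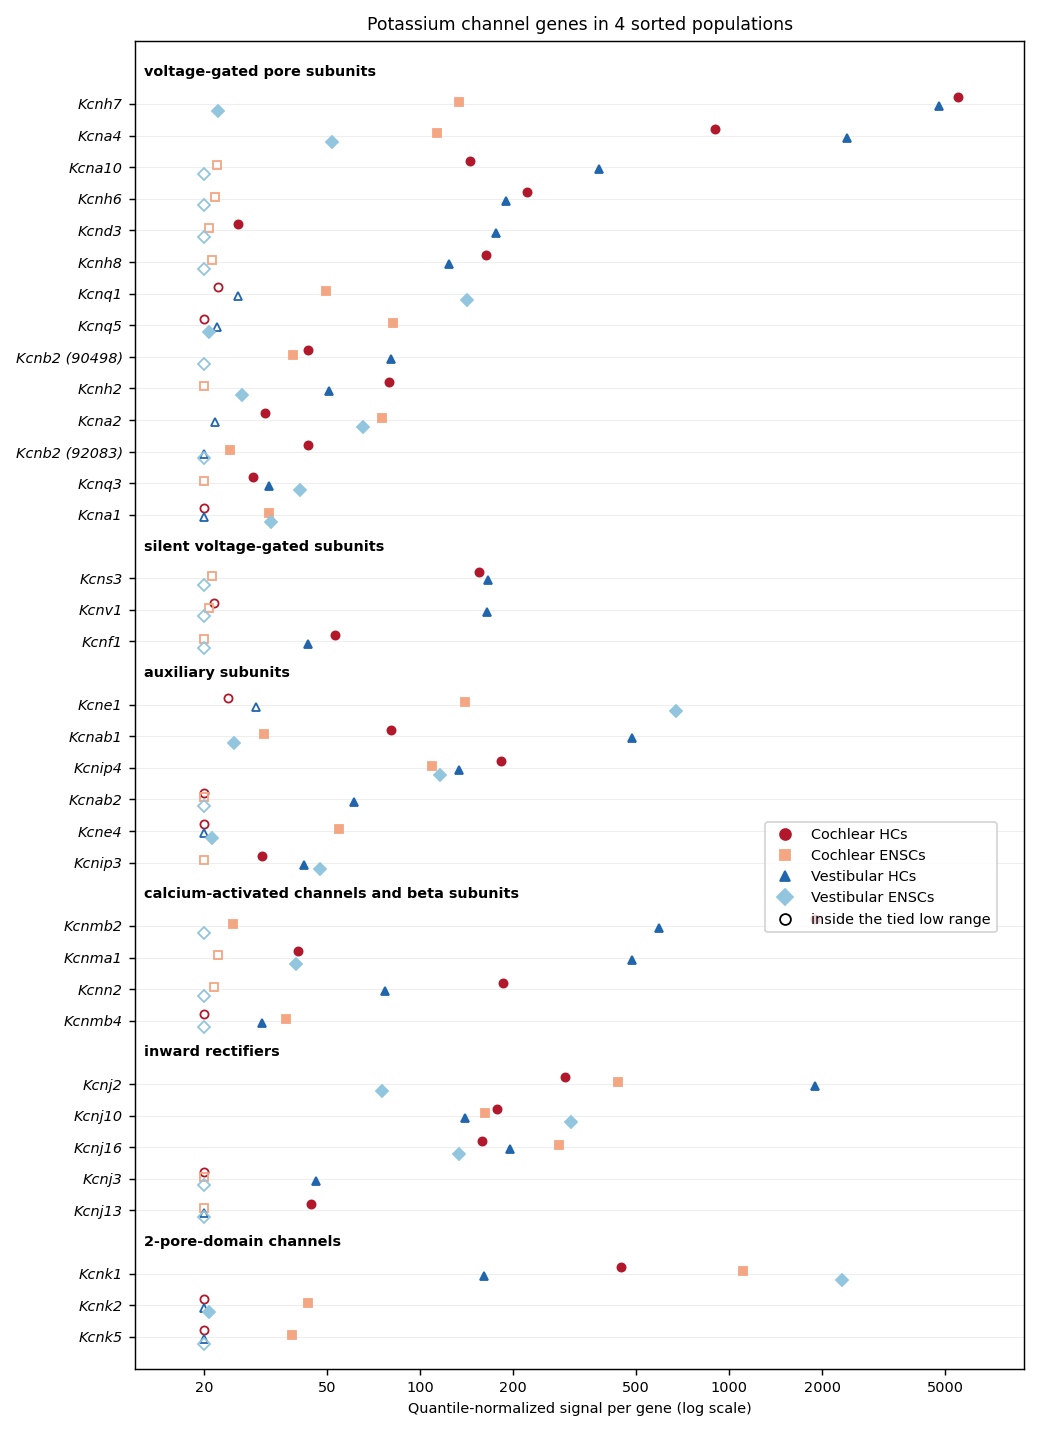
Deposited signal (log scale) of 35 of the 38 potassium channel rows, grouped by role, with 1 symbol for each of the 4 libraries and open symbols for signals inside a library's tied low range. *Kcnh7* reaches 5478 in cochlear HCs and 4774 in vestibular HCs, while *Kcnk1* and *Kcne1* are highest in vestibular ENSCs, and the rows of *Kcnb2* carry the last digits of their gene identifiers.

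The voltage-gated pore subunits were the largest class, with 17 rows. In the cochlea 8 of the 17 (47.1%, against 8.39% over the table) were at least 3-fold higher in HCs and 1 (5.88%, against 9.2%) was lower. In the vestibular system 8 were higher (against 13.8%) and 2 (11.8%, against 14.3%) were lower, and 6 (35.3%, against 4.99%) were higher in both. *Kcnh7*, which encodes a subunit of the erg family of slowly deactivating channels, had the largest vestibular ratio of any member. It stood at 5478 in cochlear HCs, 133 in cochlear ENSCs, 4774 in vestibular HCs and 22.2 in vestibular ENSCs. Both HC signals lay above both ENSC signals, and within an organ the HC excess was 41.1-fold (cochlea) and 215-fold (vestibular system). The vestibular ratio rests on an ENSC signal just above the floor of 20, and its log2 value of 7.75 became 6.58 with a floor of 50 and 6.88 after a correction for gene length and GC content. Of its 15226 exonic bases 696 overlap exons of *Gca* on the other strand, and whether reads were counted by strand is not stated.

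The other *Kcnh* members were also higher in HCs. *Kcnh6*, a further erg subunit, was at 222.5 in cochlear HCs, 21.8 in cochlear ENSCs, 190 in vestibular HCs and 20 in vestibular ENSCs. *Kcnh8*, of the related elk family, was at 164 in cochlear HCs, 21.2 in cochlear ENSCs, 124 in vestibular HCs and 20 in vestibular ENSCs. For both genes the ENSC signals lay in the tied range, and the HC excess was at least 9.78-fold (cochlea) and 9.5-fold (vestibular system) for *Kcnh6* and at least 7.19-fold and 6.2-fold for *Kcnh8*. The annotation also gives the name *Kcnh8* to another row, which is not a member by its symbol. That row was at 39.8 in cochlear HCs, 20 in cochlear ENSCs, 48.8 in vestibular HCs and 20 in vestibular ENSCs. *Kcnh2*, the erg subunit best known from the repolarization of the heart, was at 79.2 in cochlear HCs, 20 in cochlear ENSCs, 50.8 in vestibular HCs and 26.5 in vestibular ENSCs. The HC excess was at least 3.48-fold in the cochlea and 1.92-fold in the vestibular system. That order of the organs was not kept after the correction for length and GC content, when the log2 ratio went from 1.99 to 2.17 for the cochlea and from 0.94 to 2.33, then past 3-fold, for the vestibular system.

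*Kcna4*, a subunit of rapidly inactivating A-type channels, stood at 902 in cochlear HCs, 113 in cochlear ENSCs, 2400.5 in vestibular HCs and 52 in vestibular ENSCs. No signal of this gene was in a tied range, and its HC to ENSC ratio was 7.96 for the cochlea and 46.2 for the vestibular system. *Kcna10*, a Shaker-family subunit known from HCs, was at 145 in cochlear HCs, 22 in cochlear ENSCs, 379 in vestibular HCs and 20 in vestibular ENSCs. Its HC signals were at least 6.38-fold and at least 18.9-fold those of the ENSCs. *Kcna2* runs against this order, with 31.5 in cochlear HCs, 75.5 in cochlear ENSCs, 21.8 in vestibular HCs and 65.2 in vestibular ENSCs. This subunit of axonal channels was exactly 3-fold lower in vestibular HCs than in vestibular ENSCs as deposited, and at least 2.14-fold lower against the top of the tied range, and its log2 ratio went from -1.58 to -1.26 after the correction for length and GC content. *Kcna2* and *Kcna10* are neighbours on chromosome 3 with 76.2 kb between them, and their orders of cell types were opposite.

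*Kcnd3*, an A-type subunit of another family, was at 25.8 in cochlear HCs, 20.8 in cochlear ENSCs, 176 in vestibular HCs and 20 in vestibular ENSCs. Only its vestibular HC signal was above 100, at least 8.79-fold the vestibular ENSC signal. The pair of *Kcnb2* rows are pieces of 1 locus on chromosome 1, 673 bases apart, and they disagreed. The longer piece, which holds the filter signature and 908 codons, was at 43.5, 24.2, 20 and 20, and the downstream piece of 113 codons at 43.5, 38.8, 80.8 and 20, in cochlear HCs, cochlear ENSCs, vestibular HCs and vestibular ENSCs. The vestibular HC ratio of at least 4.04 for *Kcnb2* therefore holds for the downstream piece alone, and its log2 value of 2.01 became 1.08, short of 3-fold, after the correction for length and GC content.

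*Kcnq1* and *Kcnq5* were each highest in an ENSC library. *Kcnq1*, the pore of the endolymph secretion channel, was at 22.2 in cochlear HCs, 49.8 in cochlear ENSCs, 25.8 in vestibular HCs and 142 in vestibular ENSCs. Both of its HC signals were tied, and ENSCs had at least 2.05-fold the HC signal in the cochlea, and at least 4.65-fold in the vestibular system. The vestibular log2 ratio went from -2.46 to -1.38 after the correction for length and GC content and was then short of 3-fold. *Kcnq5*, a subunit of M-type channels, was highest in cochlear ENSCs, with 81.8 there, 20 in cochlear HCs, 22 in vestibular HCs and 20.8 in vestibular ENSCs, so that cochlear ENSCs had at least 3.37-fold the HC signal. *Kcnq3* and *Kcna1* stayed between 20 and 40.8 in all libraries.

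The 3 silent subunits form no current alone and change the channels of *Kcnb* products, and 1 (cochlea) and 2 (vestibular system) of them were at least 3-fold higher in HCs, against 8.39% and 13.8% of all genes. *Kcns3* was at 156 in cochlear HCs, 21.2 in cochlear ENSCs, 166 in vestibular HCs and 20 in vestibular ENSCs, an HC excess of at least 6.84-fold and 8.29-fold. *Kcnv1* reached 164 in vestibular HCs and stayed in the tied range elsewhere, at 21.5 in cochlear HCs, 20.8 in cochlear ENSCs and 20 in vestibular ENSCs. It was at least 8.2-fold higher in vestibular HCs than in vestibular ENSCs. *Kcnf1* was at 53.2 and 43.5 in cochlear and vestibular HCs and at the floor in both ENSC libraries, an HC excess of at least 2.34-fold and 2.18-fold. Its vestibular log2 ratio went from 1.12 to 1.83 after the correction for length and GC content, then past 3-fold. The correction shifts a bound here, since the vestibular ENSC signal was at the floor.

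Of the 6 auxiliary subunits of voltage-gated channels, *Kcne1* was the 1 lower in HCs of both organs. This gene, the small partner of *Kcnq1* in endolymph secretion, was at 24 in cochlear HCs, 139 in cochlear ENSCs, 29.5 in vestibular HCs and 670.5 in vestibular ENSCs. Both HC signals were tied, and ENSCs exceeded HCs at least 5.74-fold (cochlea) and 22-fold (vestibular system). In these sorted bulk libraries fewer cells that express a gene and less RNA per cell cannot be told apart. *Kcnab1*, a beta subunit that adds fast inactivation to *Kcna* channels, was at 80.8 in cochlear HCs, 31.2 in cochlear ENSCs, 483 in vestibular HCs and 25 in vestibular ENSCs. Its HC to ENSC ratio was 2.58 for the cochlea and 19.3 for the vestibular system. *Kcnab2*, of the same family, reached 61 in vestibular HCs, at least 3.05-fold the vestibular ENSC signal, and was at the floor in the other libraries. *Kcnip4*, a calcium-binding partner of *Kcnd* channels, lay between 109 and 182 in all 4 libraries and was past 3-fold in no contrast, and *Kcnip3* and *Kcne4* stayed below 55.

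In HCs 2 (cochlea) and 3 (vestibular system) of the 4 calcium-activated channel genes had at least 3 times the ENSC signal, against 8.39% and 13.8% of all genes, and 0 were lower by that much. *Kcnmb2*, a beta subunit that inactivates the large-conductance channel, was at 1895 in cochlear HCs, 24.8 in cochlear ENSCs, 593 in vestibular HCs and 20 in vestibular ENSCs. The HC excess was 76.6-fold in the cochlea, the largest of all members there, and at least 29.6-fold in the vestibular system. *Kcnma1*, the pore subunit of that channel, was at 40.2 in cochlear HCs, 22.2 in cochlear ENSCs, 486 in vestibular HCs and 39.8 in vestibular ENSCs. The HC excess was 12.2-fold in the vestibular system and at least 1.77-fold in the cochlea. Per kb of exon, the signal of the beta subunit was 608 and that of the pore subunit 8.46 in cochlear HCs, and 190 and 102 in vestibular HCs. *Kcnn2*, the small-conductance channel that carries the inhibitory current of efferent synapses on HCs, was at 185 in cochlear HCs, 21.5 in cochlear ENSCs, 77 in vestibular HCs and 20 in vestibular ENSCs, an HC excess of at least 8.13-fold and 3.85-fold. *Kcnmb4*, another beta subunit, was at 20 in cochlear HCs, 36.8 in cochlear ENSCs, 30.8 in vestibular HCs and 20 in vestibular ENSCs, and exons of a gene on the other strand overlap up to 693 of its 3324 exonic bases. *Kcnmb1*, *Kcnc1* and *Kcnip2*, which also have known roles in the ear, were not analysed here.

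The 5 inward rectifiers, which help set the resting potential, gave 0 genes past 3-fold between cochlear HCs and ENSCs and 1 of 5 (20%) higher in vestibular HCs, against 13.8% of all genes, a share near that of the table. *Kcnj2* was at 295 in cochlear HCs, 437 in cochlear ENSCs, 1895 in vestibular HCs and 75.5 in vestibular ENSCs. In the cochlea the ENSC signal was 1.48-fold the HC signal, and in the vestibular system the HC signal was 25.1-fold the ENSC signal. *Kcnj10*, the channel of glia and of the stria vascularis, was at 177 in cochlear HCs, 162 in cochlear ENSCs, 140 in vestibular HCs and 307 in vestibular ENSCs. Its partner *Kcnj16* was at 158 in cochlear HCs, 282 in cochlear ENSCs, 195 in vestibular HCs and 134 in vestibular ENSCs. Both were present at over 100 in all libraries and past 3-fold in no contrast, and for both, as for *Kcnj2*, the cell type with the higher signal differed between the organs. The HC excess was small, 1.09-fold for *Kcnj10* in the cochlea and 1.46-fold for *Kcnj16* in the vestibular system. *Kcnj16* and *Kcnj2* are neighbours on chromosome 11, 38.2 kb apart, and of the pair only *Kcnj2* was past 3-fold. *Kcnj3* reached 46 in vestibular HCs and *Kcnj13* 44.2 in cochlear HCs, each at the floor elsewhere. Exons of a gene on the other strand overlap 623 of the 1270 exonic bases of *Kcnj13* (*Gigyf2*) and 1621 of the 5215 of *Kcnj3* (*Gm17595*). Shorter overlaps of this kind cover 237 of 7716 bases of *Kcnq5* and 165 of 9587 of *Kcnd3*, and on the same strand 125 of 5578 of *Kcnab2*.

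*Kcnk1*, a 2-pore-domain channel of background potassium leak, was at 446.5 in cochlear HCs, 1109 in cochlear ENSCs, 161 in vestibular HCs and 2314 in vestibular ENSCs. All 4 signals were above the tied ranges, with an ENSC excess of 2.48-fold (cochlea) and 14.4-fold (vestibular system). *Kcnk2* was at 20 in cochlear HCs, 43.2 in cochlear ENSCs, 20 in vestibular HCs and 20.8 in vestibular ENSCs, and *Kcnk5* was above the floor in cochlear ENSCs alone, at 38.5.

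**Figure D2:**
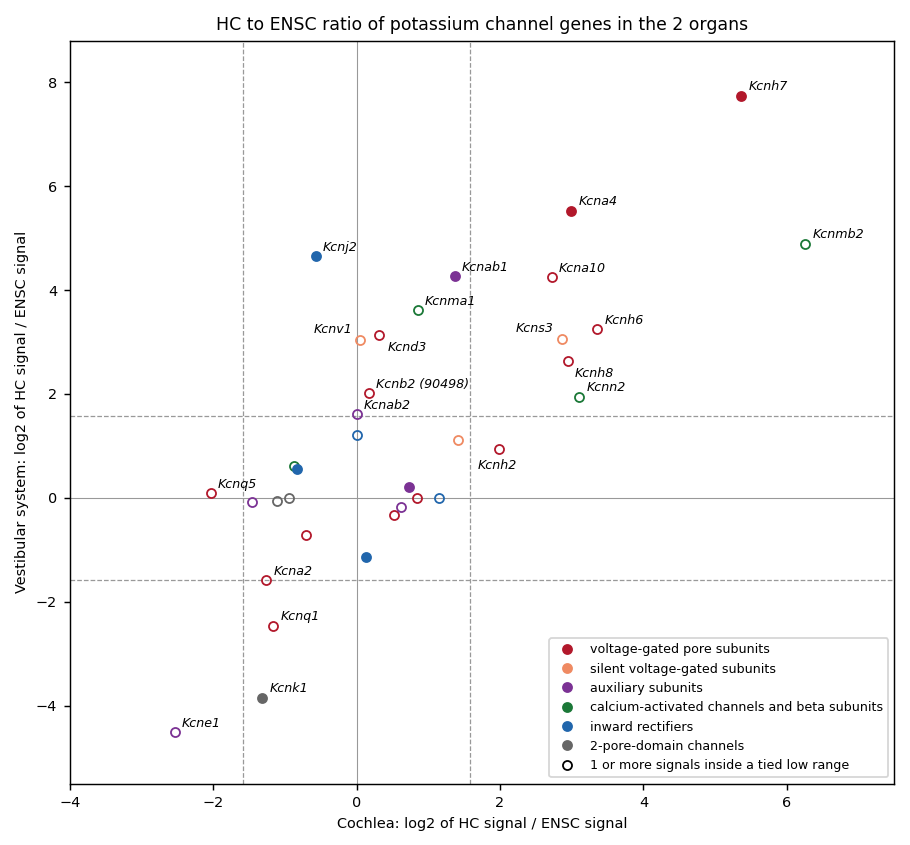
Log2 ratio of the HC signal to the ENSC signal in the cochlea (horizontal) and the vestibular system (vertical) for 35 of the 38 rows, colored by role, with dashed lines at 3-fold and open circles where 1 or more signals were tied. *Kcnh7*, *Kcna4* and *Kcnmb2* stand far to the upper right, *Kcne1* and *Kcnk1* to the lower left, and *Kcnj2* high on the vestibular axis but slightly below 0 on the cochlear one.

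Between the HCs of the organs, fewer members differed, and mostly toward the vestibular side. 1 member (2.63%) had at least 3 times the vestibular signal in cochlear HCs, against 4.21% of all genes, and 6 (15.8%) had at least 3 times the cochlear signal in vestibular HCs, against 5.09%. With tied signals set to the top of their range the 6 became 5, against 4.64%, without *Kcnab2*. The first was *Kcnmb2*, 3.2-fold higher in cochlear HCs, and the others were *Kcnma1*, *Kcnd3*, *Kcnv1*, *Kcnj2*, *Kcnab1* and *Kcnab2*. Vestibular HCs had 12.1-fold the cochlear signal of *Kcnma1*, 6.83-fold that of *Kcnd3*, 6.43-fold that of *Kcnj2*, 5.98-fold that of *Kcnab1*, at least 6.76-fold that of *Kcnv1* and at least 2.52-fold that of *Kcnab2*. Below the 3-fold threshold, members of at least 100 in an HC library were past 2-fold on both sides. *Kcnk1* (2.78-fold) and *Kcnn2* (2.4-fold) were among those higher in cochlear HCs, and *Kcna4* (2.66-fold) and *Kcna10* (2.61-fold) were higher in vestibular HCs. The 2 HC libraries also enter the contrasts with ENSCs, so these ratios are no separate evidence on them.

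**Figure D3:**
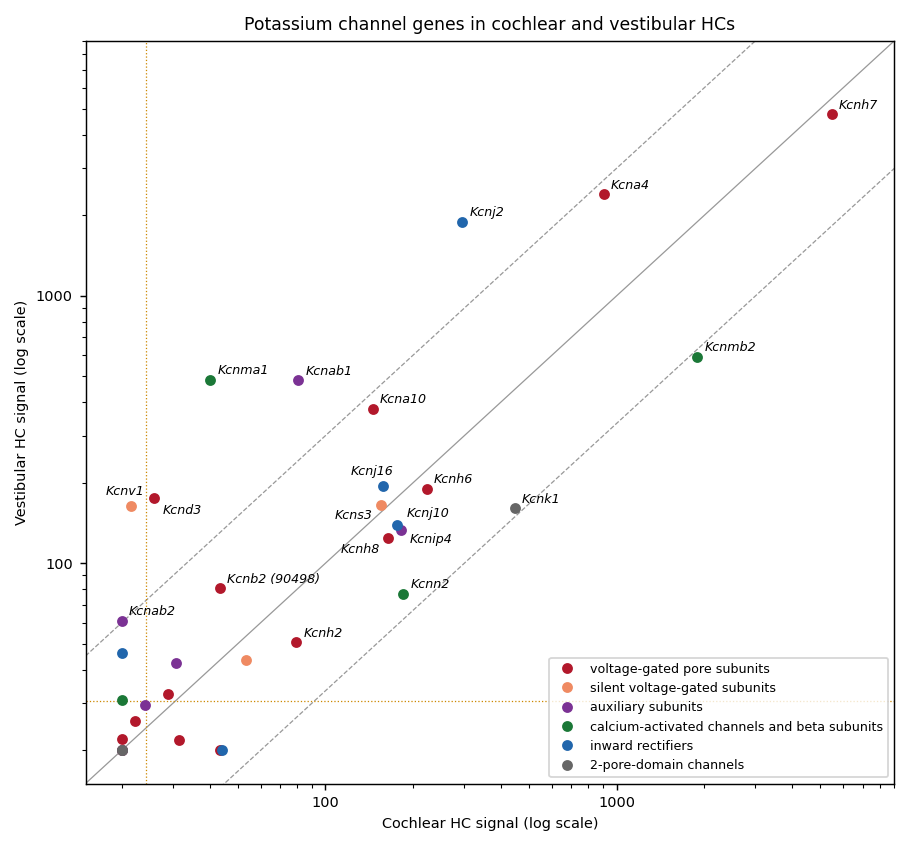
Signal in cochlear HCs (horizontal) against vestibular HCs (vertical), both on log scales, for 35 of the 38 rows, with a solid line of equal signal, dashed lines at 3-fold and dotted lines at the tops of the tied low ranges. *Kcnma1*, *Kcnab1* and *Kcnj2* lie above the upper dashed line, *Kcnmb2* just below the lower one, and *Kcnh7* close to equality at the upper right.

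Between the ENSCs of the organs, 3 members (7.89%) were past 3-fold on the cochlear side, against 7.8% of all genes, and 1 (2.63%) on the vestibular side, against 7.94%, shares near or below those of the whole table. *Kcnh7* was 5.99-fold, *Kcnj2* 5.78-fold and *Kcnq5* 3.94-fold higher in cochlear ENSCs, and *Kcne1* was 4.82-fold higher in vestibular ENSCs. *Kcnq1* and *Kcnk1* were also higher in vestibular ENSCs, by 2.85-fold and 2.09-fold. This contrast moved with GC content more than the others did, and after the correction for length and GC content the log2 ratio went from 2.58 to 1.86 for *Kcnh7*, from 2.53 to 1.87 for *Kcnj2* and from 1.98 to 1.81 for *Kcnq5*. It went from -2.27 to -1.87 for *Kcne1*, from -1.51 to -0.78 for *Kcnq1* and from -1.06 to -0.77 for *Kcnk1*, so that the first 4 genes remained past 3-fold.

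Levels of different genes were compared only per kb of exon. In cochlear HCs *Kcnmb2* led with a signal per kb of 608, followed by *Kcnh7* with 360, *Kcnk1* with 194 and *Kcna4* with 187. In vestibular HCs the order was *Kcna4* with 497, *Kcnj2* with 348, *Kcnh7* with 314, *Kcnmb2* with 190 and *Kcna10* with 175 per kb. *Kcnh7* has 15226 exonic bases, the most of all members. In cochlear ENSCs *Kcnk1* led with 482 per kb, and *Kcnj2*, *Kcnj16* and *Kcne1* followed with 80.2, 71.6 and 43.6. In vestibular ENSCs *Kcnk1* had 1006 per kb, *Kcne1* 210, *Kcnj10* 56.8 and *Kcnq1* 45.9, so that both subunits of the secretion channel were among the first 4.

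**Figure D4:**
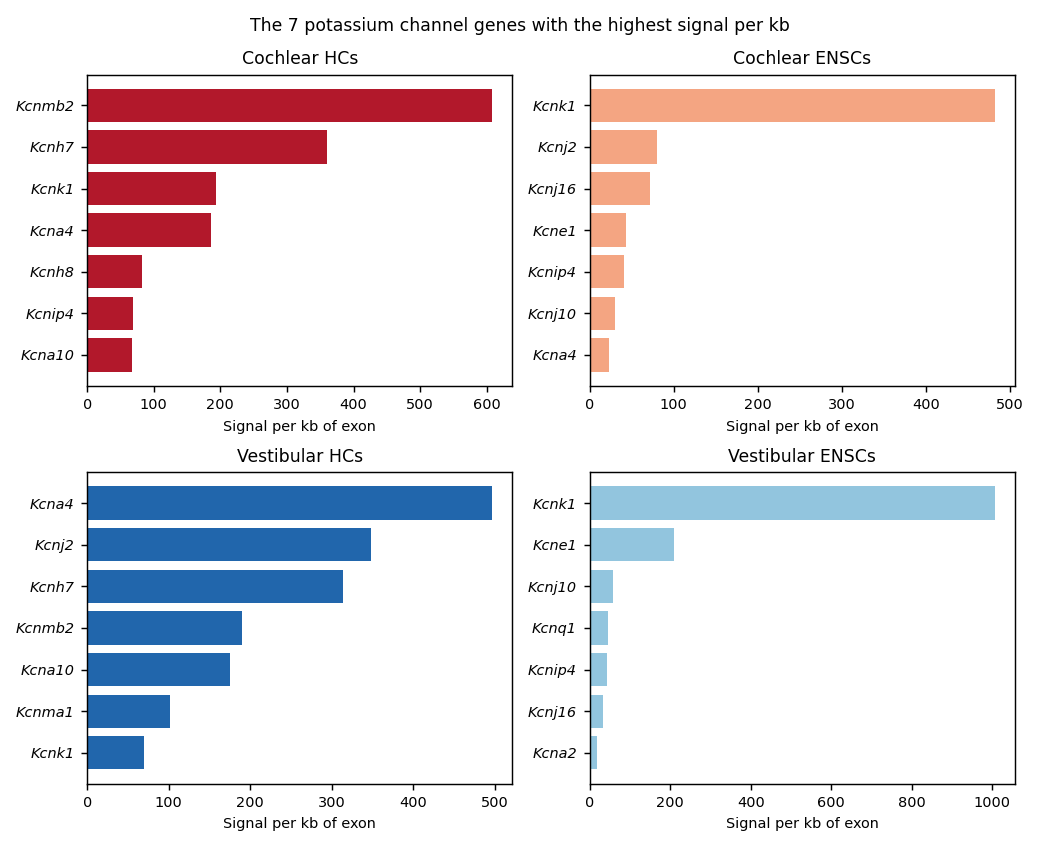
Signal per kb of exon for the 7 highest potassium channel genes in each library, on an axis that differs between panels and starts at 0. *Kcnmb2* leads in cochlear HCs at 608, *Kcna4* in vestibular HCs at 497, and *Kcnk1* in both ENSC libraries, at 482 and 1006.

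Genes that work with these channels were taken as a list of 21, of which 16 were in the table. In the cochlea 5 of the 16 were at least 3-fold higher in HCs and 1 was lower, against 8.39% and 9.2% of all genes. In the vestibular system 4 were higher and 5 were lower, against 13.8% and 14.3%. The efferent receptor subunits upstream of *Kcnn2* had the same order of libraries. *Chrna9* was at 171 in cochlear HCs, 21.2 in cochlear ENSCs, 75.5 in vestibular HCs and 20 in vestibular ENSCs, and *Chrna10* at 438.5, 22.5, 199.5 and 20 in the same order. *Cacna1d*, the calcium channel that feeds the large-conductance channel, was at 1522 in cochlear HCs, 127 in cochlear ENSCs, 1142 in vestibular HCs and 207 in vestibular ENSCs. *Dpp6*, a partner of *Kcnd* channels, was at 249.5 in cochlear HCs, 22 in cochlear ENSCs, 45.5 in vestibular HCs and 20 in vestibular ENSCs, so that its order between the HCs was opposite to that of *Kcnd3*. Between the organs 3 of the 16 were past 3-fold on the cochlear side among HCs (against 4.21% of all genes) and 0 on the vestibular side (5.09%), and among ENSCs 2 (7.8%) and 4 (7.94%).

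Of the endolymph secretion genes, some had the order of *Kcnq1* and *Kcne1* and some did not. *Atp1b2*, a sodium pump subunit, was at 798 in cochlear HCs, 545 in cochlear ENSCs, 326 in vestibular HCs and 3806 in vestibular ENSCs. *Bsnd*, a chloride channel subunit of the same cells, was at 104 in vestibular ENSCs and in the tied ranges elsewhere. *Atp1b1*, another pump subunit, and the potassium importer *Slc12a2* were highest in cochlear ENSCs, at 7107 and 15030.5. Markers of the secreting marginal and dark cells, 5 of 6 listed, summed to a signal of 5569 in cochlear HCs, 15690 in cochlear ENSCs, 5644 in vestibular HCs and 13302 in vestibular ENSCs. *Slc12a2* made up most of these sums, and the other 4 markers summed to 868, 659.5, 404 and 5251 in the same order, highest in vestibular ENSCs. *Esrrb*, a regulator of these cells, was at 1235 in vestibular ENSCs and at most 72.8 in the other libraries. The part of cell mixture in the *Kcne1*, *Kcnq1* and *Kcnk1* ratios was not tested.

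Markers of other cell types were read in the same way. The 4 glial markers summed to 733, 722.5, 252 and 1566 in cochlear HCs, cochlear ENSCs, vestibular HCs and vestibular ENSCs, with *Sox10*, which otic epithelium also expresses, at 1183 in the last, where *Kcnj10* was highest. The 3 neuronal markers of 5 in the table summed to 4494.5, 138, 4730 and 60, with *Nefl* at 2381 and 2470 in the HC libraries, in the same order of cell types as *Kcnh7* and *Kcna4*. Each of the 8 HC markers was likewise higher in HCs than in ENSCs of both organs. HCs were sorted on CD326 as well as on the fluorescent protein, a requirement meant to leave out neuronal cells with the reporter. The 5 mesenchymal markers of 6 summed to 295, 3571, 197 and 1808, and *Cd68*, the 1 blood and immune marker of 5, was at most 24.8. None of the 5 melanocyte and 3 endothelial markers was in the table. The part of such cells in the potassium channel signals was not tested.

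The members were set beside the 39 rows of calcium, sodium, TRP and HCN channel genes, the other ion channels of like kind. In the cochlea 11 of the 39 (28.2%) were at least 3-fold higher in HCs and 5 (12.8%) were lower, beside 8.39% and 9.2% of all genes. In the vestibular system 9 (23.1%) were higher and 4 (10.3%) were lower, beside 13.8% and 14.3% of all genes. In both organs 5 (12.8%) were higher, beside 4.99% of all genes and 9 of 38 potassium channel rows. The median log2 ratio of these channels was 0 for the cochlea and 0.17 for the vestibular system. The difference between the families was not tested.

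Over all genes above the floor in both libraries, the vestibular HC to ENSC log2 ratio moved with the GC content of the exons (Spearman's rho of -0.395 across 10358 genes, which share the 2 libraries). The ratio of cochlear to vestibular ENSCs moved with it more (rho of -0.453 across 10475), and the cochlear HC to ENSC ratio (-0.04 across 10722) and that of cochlear to vestibular HCs (0.022 across 10850) hardly did. The members had a median GC content of 49.9%, and all genes 48.8%. Beside the calls in vestibular HCs that changed under the correction for length and GC content, given above for *Kcnh2*, *Kcnf1*, *Kcnq1*, *Kcna2* and the downstream *Kcnb2* piece, it moved the size of others. Vestibular log2 ratios that stayed past 3-fold and moved by over 1.5 times as folds were, besides that of *Kcnh7*, those of *Kcnmb2* (from 4.89 to 4.27), *Kcnj2* (from 4.65 to 4.03), *Kcnh6* (from 3.25 to 4.31), *Kcnv1* (from 3.04 to 2.43), *Kcnn2* (from 1.94 to 2.67), *Kcnab2* (from 1.61 to 2.71) and *Kcne1* (from -4.51 to -3.84). Of the 152 ratios of members, 15 changed sign under this correction, 0 of them past 3-fold before it, with 8 of the 15 between the ENSCs and 6 between vestibular HCs and ENSCs.

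The study concerns RFX transcription factors, so the promoters were read for the half-site of these factors, GTTGCC or GTTACC on either strand. RefSeq promoters on GRCm38.p6, from 250 bases before to 50 after the start, were found for 27 of the 37 symbols. A half-site stood in 5 of their 42 promoters (11.9%), of *Kcnh7*, *Kcnab2*, *Kcnj3*, *Kcnj16* and *Kcnk2*, against 18.6% of 32851 promoters. Of the members higher in HCs of both organs that had a promoter in this table, *Kcnh7* was the one with a match. The study found its RFX motif by a de novo search, in another interval around the start and against promoters of expressed genes. The shares given here therefore do not bear on that result.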

How the data were processed

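The deposited table held 1 signal column per population. The authors aligned the first 50 bases of each read to mm9 with TopHat, obtained counts for ENSEMBL genes from HTSeq, kept genes with at least 20 reads and quantile-normalized, with a floor of 20, so the deposited signal is made comparable between libraries, but a shift of the whole transcriptome cannot be seen and depth is unknown. The methods place the floor after the normalization, whereas tied and near-tied low signals above 20 fit a floor set before it, so signals inside the tied ranges may be floored values. RNA was amplified with NuGEN Ovation. Software versions are not given in the sources used here. The design text names triplicates, and single replicates were not analysed here. Columns were matched to samples by title, those named for non-HCs to ENSCs.

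Ratios were computed without a pseudocount, and exactly 3-fold was taken as past the threshold. Lengths, GC content and codons came from the NCBIM37 (mm9) annotation, which held 12799 of 12814 identifiers. Members reaching a signal of 100 and 3-fold in 1 contrast, and members of known inner ear role, were given with 4 signals, and the rest by ranges or single signals. Some members and listed genes enter the counts and are not reported singly here, nor drawn in the figures. The members and lists were chosen with earlier results of these data known. Alternatives were other floors, pseudocounts, thresholds, centring, protein-coding genes, tied signals at the top of their range, and local regression on length and GC content (fraction 0.3, 2 robust iterations). Python 3.11.15, pandas 2.3.3, statsmodels 0.14.6 and matplotlib 3.10.9 were used, and the code was tested on simulated data.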

Additional observations from a re-analysis of the deposited data

Results flagged for a closer look

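For 6 members the cell type with the higher signal differed between the organs. The vestibular minus the cochlear log2 ratio of HCs to ENSCs was 5.22 for *Kcnj2*, 1.5 for *Kcnmb4* and 1.38 for *Kcnj16*, which were higher in cochlear ENSCs and in vestibular HCs. It was -1.27 for *Kcnj10*, -0.85 for *Kcnq3* and -0.79 for *Kcnip3*, which were higher in cochlear HCs and in vestibular ENSCs. Of the 6, *Kcnj2* was the 1 with a ratio past 3-fold within an organ, and the vestibular ratios of *Kcnq3* and *Kcnip3* changed sign under the correction for length and GC content. The vestibular log2 ratio of *Kcnj16* went from 0.55 to 0.079 under that correction, and the cochlear HC signal of *Kcnj10* was 1.09-fold the ENSC signal. With 1 column per population none of these differences was tested.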

How the results depend on the processing

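Counts below are members of 38 past the threshold, first those higher and then those lower, each with the share of all genes at the same setting in parentheses. With a threshold of 2 in place of 3, 7 (17.4%) were lower in cochlear HCs than in cochlear ENSCs, 6 (10.5%) were higher in cochlear than in vestibular HCs, 7 (17.3%) were higher and 5 (17.3%) lower in cochlear than in vestibular ENSCs, and 4 (9.97%) were lower in HCs of both organs. With a threshold of 5, 1 (3.99%) was lower in cochlear HCs than ENSCs, 0 (1.3%) were higher in cochlear than vestibular HCs and 0 (3.21%) lower in cochlear than vestibular ENSCs. A floor of 50 left 7 (5.88%) and 0 (6.29%) in the cochlea, 2 (10.6%) lower in vestibular HCs, 1 (5.21%) higher in cochlear than vestibular ENSCs, 5 (3.59%) and 0 (3.32%) in both organs, and median log2 ratios of 0.0 (cochlea) and 0.011 (vestibular system). A floor of 100 left 3 (4.07%) and 0 (4.41%) in the cochlea, 7 (7.03%) and 2 (7.58%) among vestibular cells, 3 (1.9%) lower in cochlear than vestibular HCs, 1 (3.51%) higher in cochlear than vestibular ENSCs, 3 (2.39%) and 0 (2.22%) in both organs, and medians of 0.0 in both organs. A pseudocount of 20 left 1 (6.2%) lower in cochlear HCs. A pseudocount of 100 left 3 (3.07%) and 0 (3.17%) in the cochlea, 7 (5.24%) and 2 (5.7%) among vestibular cells, 0 (0.897%) and 3 (1.27%) between HCs, 1 (2.33%) higher in cochlear than vestibular ENSCs, 3 (1.87%) and 0 (1.47%) in both organs, and medians of 0.11 (cochlea) and 0.26 (vestibular system). With members of at least 100 in 1 or more libraries alone, 1 of 21 (11.2%) was lower in cochlear HCs, and the median log2 ratios were 1.37 (cochlea) and 3.04 (vestibular system). That filter keeps a member through the library where it is high, so its medians rise by construction and support nothing. The correction for length and GC content left 2 (10%) lower in vestibular HCs. Higher floors and pseudocounts shrink ratios of low signals by construction. Centring, protein-coding genes alone and tied signals at the top of their range left each of these 14 values within 1.5 times, medians taken as folds. None of the 44 ratios past 3-fold changed sign under any of these alternatives. Of all 152 ratios of members, 15 changed sign under the correction for length and GC content, 3 with tied signals at the top of their range and 2 with centring. No paired analysis was possible because each population had 1 column and the labels give no replicate numbers. Depth is unknown, so no counting error could be given.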
